A study of Mus musculus with 24 samples.

Results

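The 10 genes described here encode the subunits of Polycomb repressive complex 2 (PRC2): Ezh2, Ezh1, Eed, Suz12, Rbbp4, Rbbp7, Mtf2, Phf19, Jarid2 and Aebp2. They were taken by name from the deposited table of 11140 genes, in which all 10 have a row, and all 10 passed the filter on low counts that left 11020 genes for testing. In T cell deficient B lymphomas the transcripts of 6 of them were higher than in T cell sufficient ones, by 1.23 to 1.79-fold: Ezh2, Eed, Suz12, Rbbp4, Rbbp7 and, at the edge of the threshold, Phf19. None was lower. Over all genes tested, 10.6% were called higher and 11.7% lower. The other 4, Ezh1, Mtf2, Jarid2 and Aebp2, did not pass the test, and at equal levels of cell division genes none of the 10 passed it, in a fit that called 0.299% of all genes.

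PRC2 places methyl groups on lysine 27 of histone H3, a mark of silent chromatin. EZH2 or its relative EZH1 carries the catalytic domain, EED and SUZ12 are required for activity, and RBBP4 or RBBP7 binds histones. Accessory subunits direct the complex to its sites, with MTF2 and PHF19 in the form called PRC2.1 and JARID2 and AEBP2 in the form called PRC2.2. In B cells EZH2 is known for its high level in dividing germinal centre cells, where it holds back differentiation genes and brakes of the cell cycle, while EZH1 is the form known from resting cells.

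The samples are RNA of splenic B lymphoma cells, purified from C57BL/6 mice. The T cell sufficient group held 12 lymphomas of genotype Bcl6Tg/+, and the T cell deficient group 11 of genotype Bcl6Tg/+CD3Epsilon-/-, so every lymphoma carried the Bcl6 transgene and the deficient ones lacked in addition a chain of the T cell receptor complex. Neither the promoter of the transgene nor the age of the mice is given in the sources used here, nor whether every lymphoma came from a mouse of its own, and without that the p-values measure only the spread between these samples. Libraries came from 2 sequencing runs, with 7 sufficient and 5 deficient libraries in run 1, and 5 and 6 in run 2.

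Total counts lay between 7.58 and 30.6 M counts per library. The B cell markers Cd79a, Cd79b and Ms4a1 were at 478.6 CPM or more (counts scaled to a common library size) in every library. Of the 6 measured T cell markers, Cd3g, Cd4, Cd8b1, Thy1 and Cd28 had medians of at most 2.87 CPM in either group, while Lck reached 749 CPM. The highest libraries lay well above these medians for some of them. Cd8b1 reached 45.2 CPM in the sufficient and 78.7 CPM in the deficient group, and Cd28 66.2 CPM and 3.404 CPM. None of the 6 was called between groups. Of neutrophil, erythroid and stromal or endothelial marker lists, 3, 6 and 4 genes were measured, of which 1 erythroid gene was called higher and 2 stromal or endothelial genes lower in deficient lymphomas. The summed level of 12 monocyte and macrophage markers ran from 194 to 2389 CPM in the sufficient group and from 130 to 634 CPM in the deficient group, and sufficient lymphoma 11, with the highest sum, stood apart from the next highest at 854 CPM. None of the 12 had a positive log2 fold change (median -0.96). Lyz2 and Itgam were called lower in deficient lymphomas (-1.89 and -2.58, adjusted p = 0.021 and 0.0173). The labels also list a repeat library of sufficient lymphoma 1 in run 2, and whether the column of that lymphoma, the deepest at 30.6 M counts, also holds reads of the repeat is not known. Without this lymphoma Ezh2, Eed, Suz12, Rbbp4 and Rbbp7 passed the comparison of groups and Phf19 did not. Sufficient lymphomas 9, 10 and 11, all of run 2, held more than 20 CPM of both Xist, expressed from the inactive X of females, and Y-linked genes, so results are also given without them. Y-linked genes with Xist at 5.64 CPM or less were found in deficient lymphomas 1, 3, 4, 6, 7, 8, 9 and 11. In the sufficient group this held only for lymphomas 4, 5, 6 and 7, so the groups differed in this mix. With Xist and Y-linked levels as covariates Rbbp7, on the X, passed (0.85, adjusted p = 0.0159). Between runs, with group as a term, 36.3% of all genes differed, and 5 of the 10 PRC2 genes were among them. Ezh1 and Jarid2 were higher in run 2, by 0.63 and 0.68 on the log2 scale, and the log2 differences of Ezh2, Rbbp4 and Rbbp7 were -0.41, -0.45 and -0.67. Each run holds other lymphomas, so a run and its lymphomas cannot be told apart.

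In the mouse genome (GRCm38, GENCODE M21) the genes lie apart from each other. Ezh2 is at chr6:47530139-47595341 and Aebp2 at chr6:140622663-140678472, Ezh1 at chr11:101191115-101226463 and Suz12 at chr11:79993106-80034123. Eed is at chr7:89954654-89980983, Rbbp4 at chr4:129307100-129335370 and Rbbp7 at chrX:162760402-162779092. Mtf2 is at chr5:108065674-108109004, Phf19 at chr2:34893757-34914026 and Jarid2 at chr13:44729474-44921643. Genes on the opposite strand overlap Ezh2, Eed, Suz12, Rbbp4, Rbbp7, Mtf2 and Phf19, and whether counting used the strand is not known here, so reads in the overlaps cannot be assigned.

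Levels of different genes were set side by side as CPM per kilobase of merged exons. Rbbp7 was the highest of the 10, at 149 CPM per kb ± 60.2 (SD, n = 12) in the sufficient and 243 CPM per kb ± 97.9 (SD, n = 11) in the deficient group. Suz12 came next with 70.1 CPM per kb ± 10.9 and 85.9 CPM per kb ± 9.24, followed by Rbbp4 with 48.0 CPM per kb ± 10.3 and 56.0 CPM per kb ± 8.42. These 3 had this order in all 23 lymphomas by merged exons. Ezh2 followed, at 27.1 CPM per kb ± 8.23 in the sufficient and 45.9 CPM per kb ± 9.69 in the deficient group, and then Eed, at 23.2 CPM per kb ± 4.30 and 31.9 CPM per kb ± 4.70. The means of Ezh2 and Eed differed by less than the larger of their SDs in the sufficient group and by more in the deficient group. Among the accessory genes, Aebp2 averaged 20.5 CPM per kb in both groups, Mtf2 18.7 and 26.4 CPM per kb, and Phf19 9.97 and 14.6 CPM per kb. Ezh1 and Jarid2 had the lowest means, at 9.01 and 8.73 CPM per kb in the sufficient group and 9.98 and 7.53 CPM per kb in the deficient group, and differed by less than their SDs. Phf19 was above Ezh1 in only 5 of 12 sufficient lymphomas, and per longest transcript its mean there was the lower, at 13.4 against 15.9 CPM per kb. Per kilobase of the longest transcript the order below Rbbp7 changed. The annotated exons of Rbbp4 merge to 8744 bases against 4663 bases in its longest transcript, and those of Ezh2 to 6678 against 2787 bases. By that length Rbbp4 was above Suz12 in 11 of 12 sufficient lymphomas, by less than the larger SD, and in 6 of 11 deficient ones. Ezh2 was then second in the deficient group, at 110.1 CPM per kb ± 23.2 (SD, n = 11), with Rbbp4 at 105 CPM per kb ± 15.8 within its spread.

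Ezh2 exceeded Ezh1 per kilobase in 22 of the 23 lymphomas. The ratio of Ezh2 to Ezh1 ran from 0.661 through a median of 3.39 to 6.48 in the sufficient group and from 2.15 through 4.44 to 12.4 in the deficient group, so the groups overlapped between 2.15 and 6.48. Within run 1 it averaged 4.23 ± 1.25 (SD, n = 7) in sufficient and 7.34 ± 3.15 (SD, n = 5) in deficient lymphomas, and within run 2 2.16 ± 1.14 (SD, n = 5) and 3.62 ± 0.872 (SD, n = 6). The single lymphoma with more Ezh1 than Ezh2 was sufficient lymphoma 10, which also had the lowest level of cell division genes, and by the longest transcripts its ratio was 0.896.

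**Figure D1:**
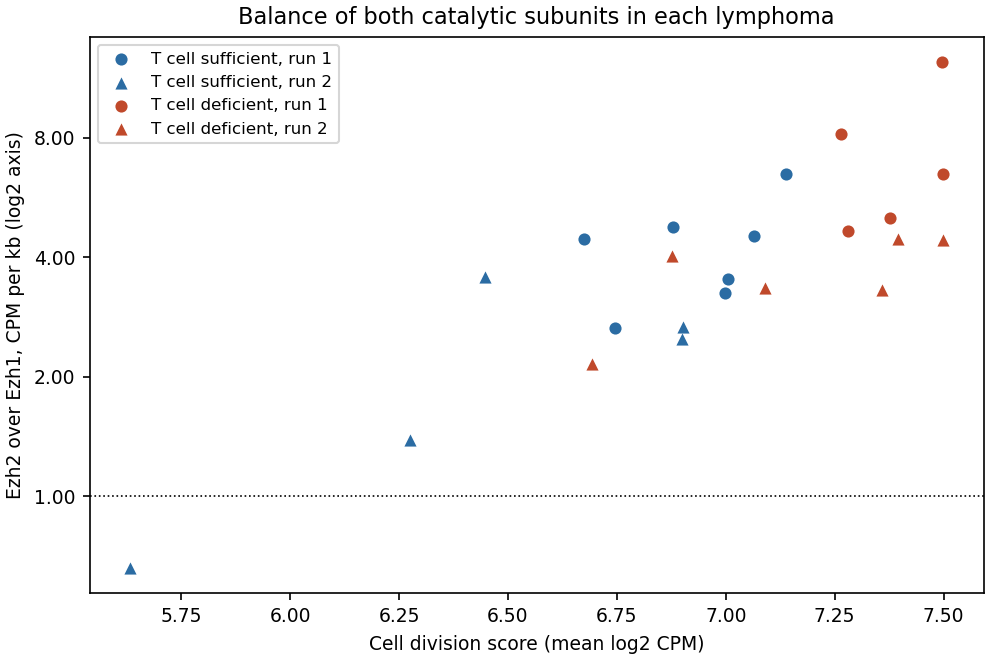
Ratio of Ezh2 to Ezh1, both as CPM per kilobase of merged exons (y axis, log2 scale), against the cell division score, the mean log2 CPM of 54 replication and mitosis genes (x axis), for each of the 23 lymphomas. Colour gives the group and shape the run, and the dotted line marks equal levels. Sufficient lymphoma 10, at a ratio of 0.661 and a score of 5.63, lies alone below the line at the lower left.

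The main comparison asked how the subunit transcripts differ between lymphomas that arose with and without T cells. Across all genes 22.2% were called at an adjusted p under 0.05, 10.6% as higher and 11.7% as lower in the deficient group. Of the 10 PRC2 genes 6 were called, all as higher. Their median log2 fold change was 0.38, beside -0.01 over all genes tested, the value to set beside the medians of the other lists given further on. In bulk RNA, fewer cells with a transcript and less of it per cell cannot be told apart.

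The catalytic genes differed from each other in this respect. Ezh2 ran from 65.4 through a median of 189.8 to 276 CPM in sufficient lymphomas and from 221 through 280.5 to 413 CPM in deficient ones. All 11 deficient libraries were above the sufficient median, 7 of them were above every sufficient library, and 9 sufficient libraries were below every deficient one. Ezh2 was 1.79-fold higher in the deficient group (log2 fold change 0.84 ± 0.15 SE, edgeR adjusted p = 0.00104). Ezh1 ran from 44.6 through 62.9 to 110.2 CPM and from 37.2 through 70.8 to 129 CPM, with nearly complete overlap. Its log2 fold change of 0.03 ± 0.13 SE did not pass the test (adjusted p = 0.884), and its 95% interval, from the SE, was -0.22 to 0.28.

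Both core genes that EZH2 needs for activity were higher. Eed, whose protein binds methylated lysine 27, ran from 66.6 through 87.4 to 122 CPM in sufficient and from 94.8 through 121 to 149.7 CPM in deficient lymphomas. The groups overlapped between 94.8 and 122 CPM, and 8 of 12 sufficient libraries lay below every deficient one. Eed was 1.38-fold higher (0.46 ± 0.10 SE, adjusted p = 0.00392). Suz12, which holds the complex together, ran from 277 through 344 to 434 CPM and from 345 through 431 to 492.04 CPM. Here 6 sufficient libraries lay below every deficient one and 5 deficient libraries above every sufficient one, and Suz12 was 1.25-fold higher (0.33 ± 0.08 SE, adjusted p = 0.00737).

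The histone-binding pair belongs to other chromatin complexes as well. Rbbp4 ran from 271 through 432 to 551 CPM in sufficient and from 352 through 502 to 587 CPM in deficient lymphomas. Its groups overlapped over both runs together but parted more clearly within each, with 6 of 7 sufficient libraries below every deficient one in run 1 and 5 of 6 deficient libraries above every sufficient one in run 2. Rbbp4 was 1.23-fold higher (0.29 ± 0.07 SE, adjusted p = 0.0072), and without the run term it did not pass (0.22, adjusted p = 0.206). Rbbp7 ran from 218 through 392 to 817 CPM and from 308 through 600.1 to 1129 CPM, the widest range of the called genes in absolute terms. It was 1.79-fold higher (0.84 ± 0.20 SE, adjusted p = 0.00518). Of the 50-base stretches of its transcripts, 6.97% also occur in the annotated gene Gm6382. The exons of Rbbp7 also overlap the span of the gene Txlng on the opposite strand, so the assignment of some of its reads is uncertain.

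Among the accessory genes only Phf19, a PRC2.1 subunit that binds methylated histone H3, passed the test. It ran from 32.5 through 44.4 to 93.2 CPM in sufficient and from 49.3 through 73.7 to 113 CPM in deficient lymphomas, and 8 sufficient libraries were below every deficient one. It was 1.44-fold higher (0.53 ± 0.19 SE, adjusted p = 0.0488), and it passed in 7 of the 23 fits that left out 1 library each, with adjusted p between 0.0115 and 0.1005. Mtf2, the other PRC2.1 gene here, ran from 50.1 through 88.2 to 249 CPM and from 107 through 125 to 292 CPM. Of its sufficient libraries 8 lay below every deficient one, but the 3 highest sufficient libraries, at 249, 189.9 and 137 CPM, lay above the deficient median, and the log2 fold change of 0.43 ± 0.25 SE did not pass (adjusted p = 0.214). Without sufficient lymphoma 6, which held 249 CPM, it passed (0.63, adjusted p = 0.0218).

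Neither PRC2.2 gene passed. Jarid2, which helps to recruit the complex, ran from 38.7 through 82.1 to 147 CPM in sufficient and from 40.6 through 72.4 to 118 CPM in deficient lymphomas. It differed by -0.32 ± 0.17 SE on the log2 scale (adjusted p = 0.178), with a 95% interval of -0.66 to 0.01. Aebp2 ran from 149.9 through 198 to 310.3 CPM and from 155 through 208 to 235 CPM. It differed by 0.01 ± 0.11 SE (adjusted p = 0.969), with an interval of -0.22 to 0.23. The widest Aebp2 values, high and low, were both in the sufficient group.

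**Figure D2:**
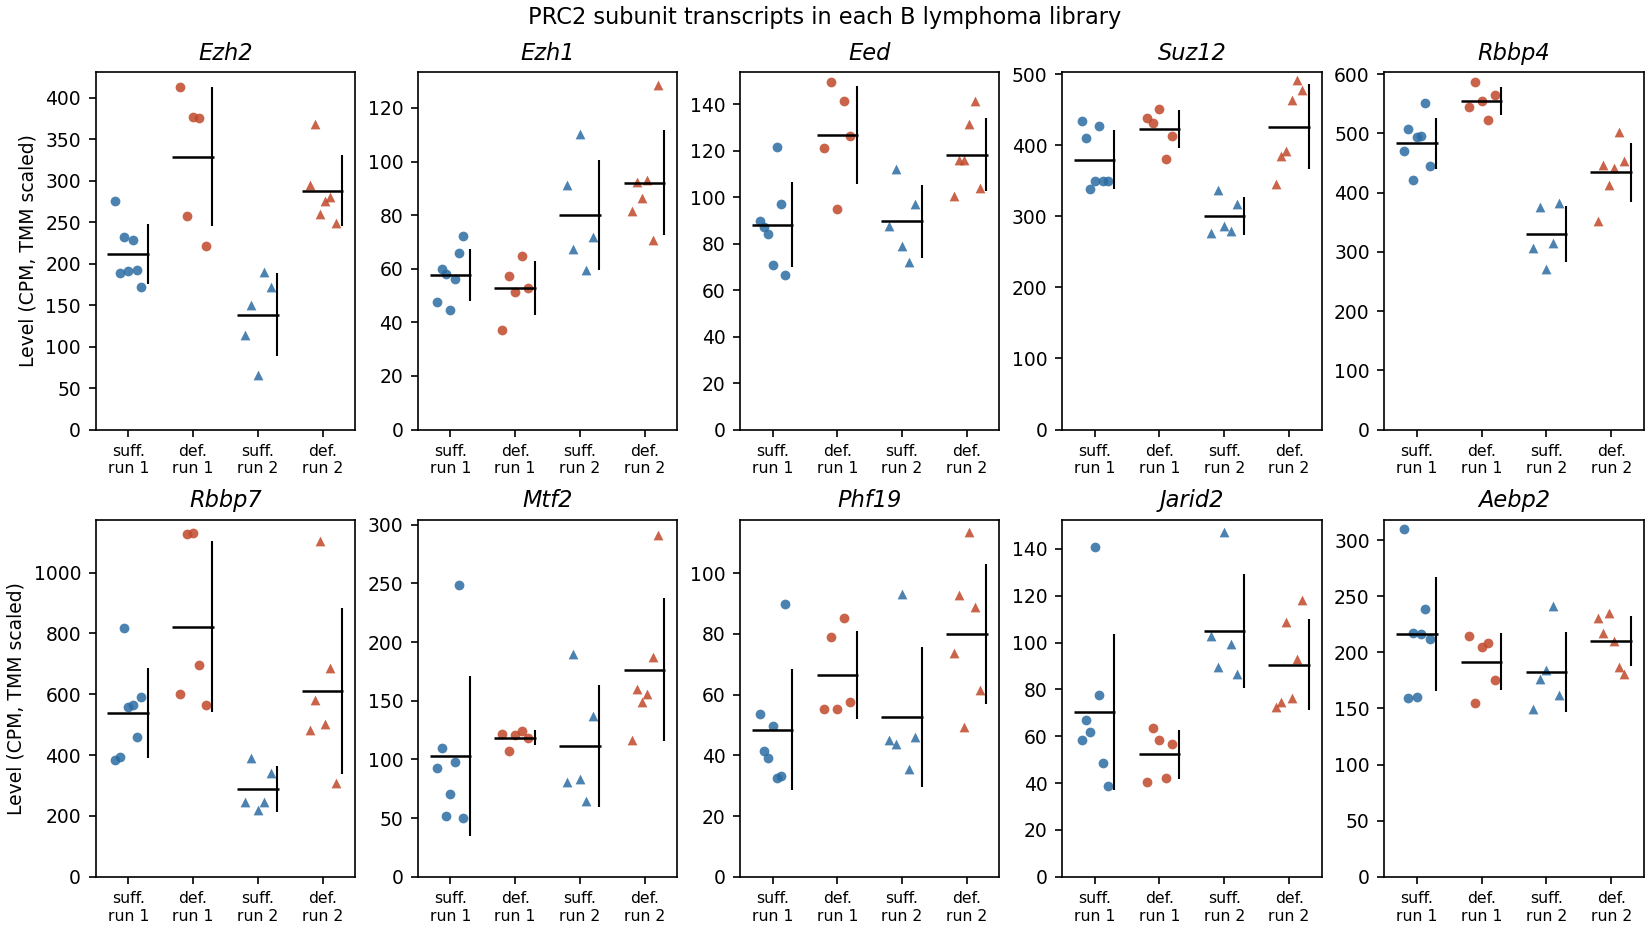
Level of each PRC2 gene in each library, as CPM scaled by TMM (y axis, linear from 0), by group and run (x axis). Circles are run 1 and triangles run 2, blue is T cell sufficient and red T cell deficient, and bars give the mean and SD. For Ezh2 all 6 deficient libraries of run 2 are above all 5 sufficient ones, and the same holds for Suz12.

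Within single runs fewer genes passed. In run 1 no gene did (0% of 11064 genes by edgeR, with 1832 at an unadjusted p under 0.05), and 4 of the PRC2 genes had an unadjusted p under 0.05: Ezh2 at 0.63 ± 0.17 SE, Eed at 0.52 ± 0.16 SE, Rbbp7 at 0.60 ± 0.24 SE and Rbbp4 at 0.20 ± 0.09 SE on the log2 scale. In run 2 12.3% of genes were called and 3 PRC2 genes with them. These were Ezh2 (1.06 ± 0.24 SE, adjusted p = 0.019), Suz12 (0.51 ± 0.12 SE, adjusted p = 0.0223) and Rbbp7 (1.09 ± 0.29 SE, adjusted p = 0.0371). Eed (0.41 ± 0.14 SE) and Rbbp4 (0.40 ± 0.12 SE) had adjusted p of 0.0777 and 0.0556 there. Of the 10 genes 7 were positive in both runs, Jarid2 was negative in both, and Ezh1 and Aebp2 were negative in run 1 and positive in run 2. The test of the difference between runs called no gene (0%, with 723 at an unadjusted p under 0.05). Among PRC2 genes Suz12 alone had an unadjusted p under 0.05 in it, with a difference of 0.35 ± 0.15 SE (p = 0.0248, adjusted p = 0.757).

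With sufficient lymphomas 9, 10 and 11 left out, 13.3% of all genes and 4 PRC2 genes passed: Ezh2 (0.76, adjusted p = 0.00306), Eed (0.47, adjusted p = 0.0147), Rbbp4 (0.25, adjusted p = 0.043) and Rbbp7 (0.76, adjusted p = 0.0342). Suz12 and Phf19 had adjusted p of 0.0551 and 0.061. With the mean of the monocyte and macrophage markers as a covariate 18.7% of all genes were called. The differences of Ezh2, Eed, Suz12, Rbbp4 and Rbbp7 were 0.90, 0.41, 0.27, 0.23 and 0.79 and each still passed, while Phf19 did not (0.58, adjusted p = 0.0509). The summed B cell markers were lower in deficient lymphomas, at a median of 4869 CPM against 7327 CPM, and 5 of 8 of these genes were called lower. Their part in the PRC2 differences was not tested.

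**Figure D3:**
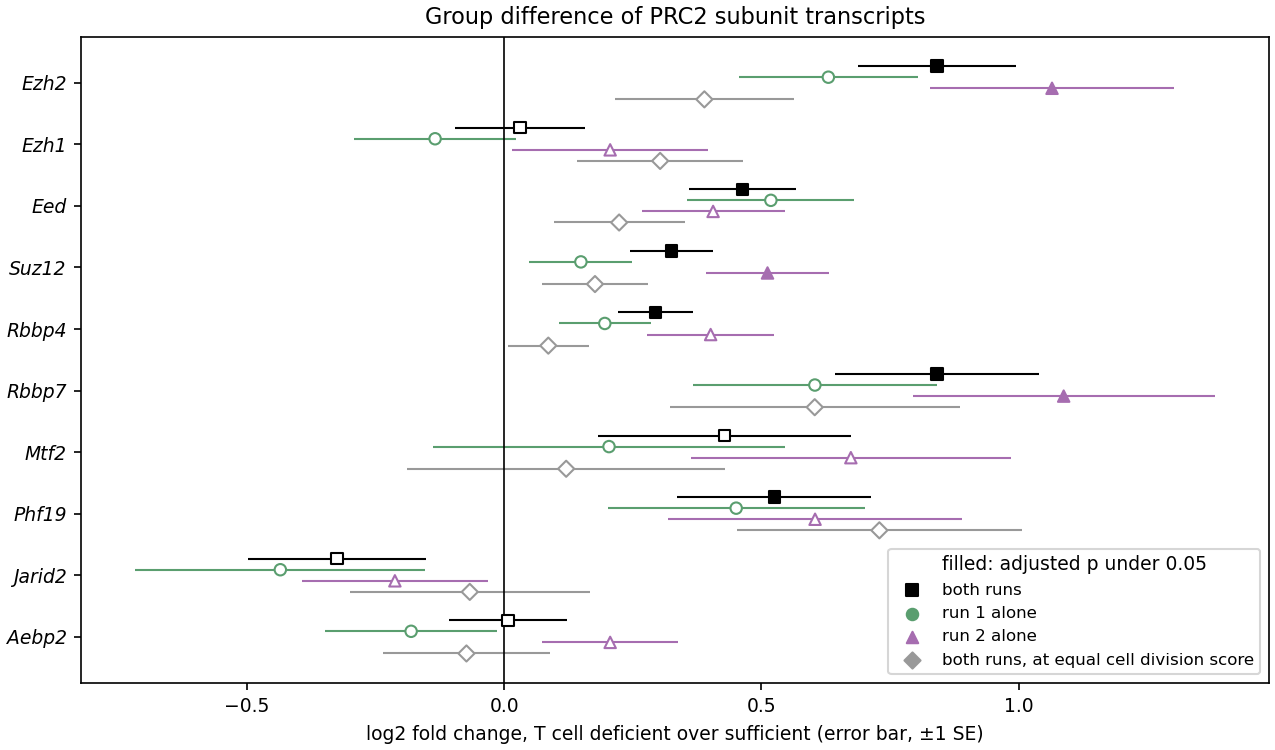
Log2 fold change of each PRC2 gene, T cell deficient over sufficient (x axis), with ±1 SE, over both runs, in each run alone, and over both runs with the cell division score held equal. Filled symbols have an adjusted p under 0.05. Filled squares stand at 0.29 to 0.84 for 6 genes, and no symbol for equal score is filled.

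The level of cell division genes differed between the groups as well. The cell division score, the mean log2 CPM of 25 replication and 29 mitosis genes, ran from 5.63 through a median of 6.89 to 7.14 in sufficient and from 6.69 through 7.36 to 7.499 in deficient lymphomas. In run 1 every deficient lymphoma scored above every sufficient one, and in run 2 4 of 6 did. None of the PRC2 genes is among the 54. When the score was added to the comparison of groups, 0.299% of genes (33) were still called and no PRC2 gene was, although 3 had an unadjusted p under 0.05, as did 14.0% of all genes. At equal score the log2 difference of Ezh2 was 0.39 ± 0.17 SE (adjusted p = 0.319), against 0.84 without the score. Eed stood at 0.22 ± 0.13 SE, Suz12 at 0.18 ± 0.10 SE and Rbbp4 at 0.09 ± 0.08 SE. Rbbp7 had 0.60 ± 0.28 SE (adjusted p = 0.341), against 0.84 without the score, and Phf19 had 0.73 ± 0.28 SE (adjusted p = 0.232), more than its 0.53 without the score. The scores of the groups share the range from 6.69 to 7.14.

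Within groups the question was whether lymphomas with more cell division transcripts had more PRC2 transcripts. A slope per unit of score, which is a doubling of the geometric mean of those genes, was fitted over all 23 lymphomas with group and run held apart. Across all genes 4.98% had a slope at an adjusted p under 0.05. None of the PRC2 genes did, and 4 had an unadjusted p under 0.05, 40.0% against 17.9% of all genes. Ezh2 had a slope of 0.75 ± 0.24 SE (adjusted p = 0.0822), Eed of 0.46 ± 0.15 SE (adjusted p = 0.0895) and Rbbp4 of 0.35 ± 0.10 SE (adjusted p = 0.0572). The slope of Ezh1 was of the opposite sign, at -0.55 ± 0.18 SE (adjusted p = 0.0981). Those of Suz12, Rbbp7, Mtf2, Phf19, Jarid2 and Aebp2 were 0.21, 0.32, 0.55, -0.36, -0.51 and 0.07, each with an unadjusted p above 0.05. For scale, 28 of 29 mitosis genes and 21 of 25 replication genes, which form the score, were called with a positive slope.

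Sufficient lymphoma 10 weighs on these slopes. Its score of 5.63 was the lowest of all, its Ezh2, Rbbp4 and Rbbp7 were the lowest of the sufficient group at 65.4, 271 and 218 CPM, and its Ezh1, Phf19 and Jarid2 were the highest at 110.2, 93.2 and 147 CPM. Without it the slope of Ezh2 was 0.45 ± 0.26 SE, that of Ezh1 -0.51 ± 0.26 SE, that of Eed 0.66 ± 0.20 SE and that of Rbbp4 0.35 ± 0.13 SE, and the slope of Phf19 turned from -0.36 to 0.33. Without sufficient lymphomas 9, 10 and 11 together the slopes of Ezh2, Eed, Rbbp4 and Phf19 were 0.55, 0.61, 0.34 and 0.31, and none of these passed. Leaving out deficient lymphoma 6 instead, Rbbp4 passed the threshold (0.44, adjusted p = 0.0156), as it did with a score of the replication genes alone (0.40, adjusted p = 0.0442).

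Correlations with the score were also taken in each group alone, with both measures centred by run, a permutation test within runs, and p adjusted over all 11020 genes. In the sufficient group 0.39% of all genes passed and in the deficient group 0% (with 1470 at an unadjusted permutation p under 0.05). The number of draws and of genes limits how small an adjusted p can become. In the deficient group not even the genes that form the score passed, so not passing there cannot set PRC2 genes apart. No PRC2 gene passed in any of the 20 relations. The closest was Rbbp4 in the sufficient group, with r = 0.87 and rho = 0.89 (permutation p = 0.00189 and 0.00171, adjusted p = 0.101 and 0.119), and r = 0.78 without the 2 lymphomas farthest from the median score, 8 and 10. Suz12 there had r = 0.62 and rho = 0.71 (permutation p = 0.014 and 0.0021, adjusted p = 0.217 and 0.125), and r = 0.84 without those 2. Ezh2 had r = 0.79 and rho = 0.65 in the sufficient group (permutation p = 0.0301 and 0.0616, adjusted p = 0.305 and 0.414), but r = 0.09 without lymphomas 8 and 10. These 2 had the lowest scores, so leaving them out also narrows the range of scores. For Ezh1 r was -0.65 and rho -0.54 (permutation p = 0.0557 and 0.118, adjusted p = 0.392 and 0.53) and r -0.06 without the same 2. Within run 1 alone, over 7 sufficient lymphomas, r was 0.65 for Rbbp4, 0.84 for Suz12, 0.43 for Ezh2 and -0.36 for Ezh1. The sign differed between both runs and run 1 for Rbbp7, with 0.27 over both runs and -0.83 in run 1, and for Jarid2, with -0.31 and 0.13. Run 2 held 5 sufficient lymphomas, too few for a value.

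In the deficient group the values of these 4 genes were nearer to 0, and none passed. There r was 0.44 for Rbbp4, 0.16 for Suz12, 0.37 for Ezh2 and -0.48 for Ezh1, with rho of 0.34, 0.12, 0.33 and -0.19 (permutation p of r = 0.35, 0.731, 0.134 and 0.149, adjusted p = 0.699, 0.895, 0.5 and 0.522). Whether the groups differ in these 4 was tested by the slope difference, which none passed (adjusted p = 0.999 for each).

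Eed had the same sign of r in both groups, as did the other PRC2 genes apart from Phf19 and Mtf2. In sufficient lymphomas r was 0.55 and rho 0.73 (permutation p = 0.046 and 0.0135, adjusted p = 0.362 and 0.239), with r = 0.73 without the 2 farthest. In deficient lymphomas r was 0.65 and rho 0.73 (permutation p = 0.0147 and 0.0116, adjusted p = 0.261 and 0.416), with r = 0.51 without the 2 farthest, lymphomas 1 and 6. Phf19 had opposite signs, with r = -0.56 and rho = -0.27 in the sufficient group (permutation p = 0.0702 and 0.409, adjusted p = 0.428 and 0.774) and r = 0.60 and rho = 0.60 in the deficient group (permutation p = 0.107 and 0.0883, adjusted p = 0.466 and 0.621). Alone, the 7 sufficient lymphomas of run 1 gave r = 0.62 for Eed and -0.37 for Phf19, and the 6 deficient lymphomas of run 2 gave 0.88 and 0.66. The slopes of Phf19 in the 2 groups differed by 1.79 ± 0.59 SE (p = 0.00644), which did not pass over all genes (adjusted p = 0.862). That test called no gene at all (0%, with 489 at an unadjusted p under 0.05). Mtf2 also had opposite signs of r, though not of rho. In sufficient lymphomas r was 0.54 and rho 0.73 (permutation p = 0.0405 and 0.0134, adjusted p = 0.346 and 0.239). In deficient ones r was -0.24 and rho 0.13 (permutation p = 0.662 and 0.736, adjusted p = 0.87 and 0.967). Its slopes differed by -1.58 ± 0.78 SE (p = 0.0559, adjusted p = 0.999).

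**Figure D4:**
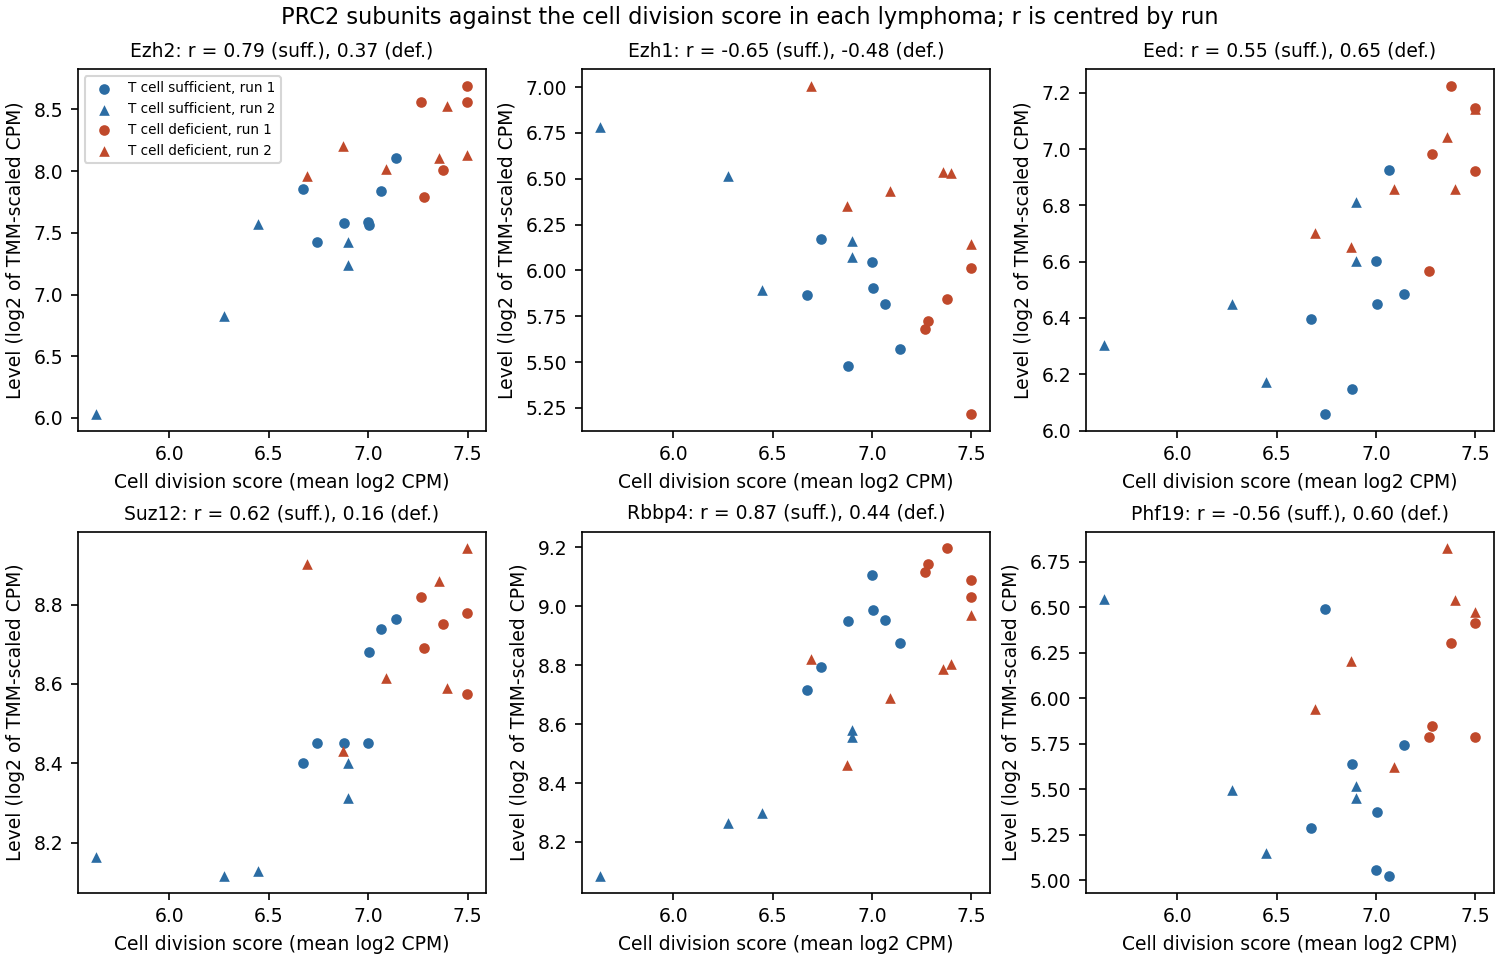
Level of 6 PRC2 genes as log2 CPM (y axis) against the cell division score as mean log2 CPM (x axis), with 1 point per lymphoma. Blue is T cell sufficient and red T cell deficient, circles are run 1 and triangles run 2, and r above each panel is the correlation within each group after centring by run. Ezh2, Eed and Rbbp4 lie higher at higher scores and Ezh1 lower, and for Ezh2 the low end is set by sufficient lymphomas 8 and 10.

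Promoter sequence is shown because genes of the cell cycle commonly carry CCAAT boxes near their start, and is printed for 5 of the 6 genes called higher (Eed has no stretch outside annotated exons) and for Ezh1, which did not pass the test. RefSeq windows from 250 bases before to 50 after the annotated start (GRCm38.p6) were found for all 10 genes. CCAAT was searched on both strands, as were an E2F site (TTTCCCGC, TTTGGCGC, TTTCGCGC or TTTGCCGC) and a CHR element (TTTGAA), whose letters do not overlap with those of the CCAAT box. CCAAT was in the first window of 6 of the 10 genes, namely Ezh2, Eed, Suz12, Rbbp4, Rbbp7 and Jarid2, against 37.4% of all 32851 windows, 37.9% of those of genes in the table and 72.9% of the 48 windows of cell division genes. Ezh2 held 3 boxes, starting 90, 64 and 11 bases before its start. An E2F site was in the first window of 3 genes (Ezh2, Suz12 and Phf19), against 2.26% of all windows, 4.02% of the 10892 windows of genes in the table and 16.7% of those of cell division genes. The Ezh2 site, TTTGGCGC, begins 4 bases into the transcript. CHR elements were in 2 first windows (Eed and Suz12), against 17.9% of all windows, 12.0% of those of genes in the table and 45.8% of those of cell division genes. Over all their windows 4 of the 10 genes held one, Mtf2 and Aebp2 among them. Stretches of 120 bases outside annotated exons are given on the gene's strand from 5′ to 3′, with CCAAT or its complement ATTGG in capitals. They lie at chr6:47595059-47595178 (minus strand) for Ezh2, chr11:79992986-79993105 (plus) for Suz12, chr4:129335371-129335490 (minus) for Rbbp4, chrX:162760252-162760371 (plus) for Rbbp7, chr2:34914027-34914146 (minus) for Phf19 and chr11:101226464-101226583 (minus) for Ezh1.
Ezh2: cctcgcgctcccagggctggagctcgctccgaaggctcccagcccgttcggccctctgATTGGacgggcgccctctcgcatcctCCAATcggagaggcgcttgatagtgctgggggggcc
Suz12: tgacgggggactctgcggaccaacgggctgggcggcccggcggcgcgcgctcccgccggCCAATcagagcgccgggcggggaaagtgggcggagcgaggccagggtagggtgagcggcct
Rbbp4: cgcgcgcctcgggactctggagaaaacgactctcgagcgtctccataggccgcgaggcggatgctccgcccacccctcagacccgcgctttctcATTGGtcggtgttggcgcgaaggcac
Rbbp7: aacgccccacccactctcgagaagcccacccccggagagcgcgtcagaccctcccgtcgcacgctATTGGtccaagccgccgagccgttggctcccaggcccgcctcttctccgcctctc
Phf19: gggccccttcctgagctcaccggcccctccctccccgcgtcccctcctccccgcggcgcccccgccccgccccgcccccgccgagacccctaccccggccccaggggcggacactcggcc
Ezh1: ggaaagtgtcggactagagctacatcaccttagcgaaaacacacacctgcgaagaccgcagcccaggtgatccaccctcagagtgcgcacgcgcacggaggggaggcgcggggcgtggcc

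Neither the Phf19 stretch, of a gene called higher, nor the Ezh1 stretch holds CCAAT. A match is a description of letters, and no binding was measured in these data.

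The rest of the Polycomb system was taken from lists. Of 6 tested other PRC2 partners none was called higher and 1 lower. That was Phf1, the third Polycomb-like gene beside Mtf2 and Phf19, which fell from 21.8 CPM ± 19.9 (SD, n = 12) to 10.8 CPM ± 8.27 (SD, n = 11; log2 fold change -1.09 ± 0.30 SE, adjusted p = 0.0125). Lcorl, E130012A19Rik (Epop) and Tceb1 (Eloc) did not pass, at 0.34, 0.69 and 0.09. Of 25 tested genes of PRC1, the partner complex that ubiquitinates histone H2A, 3 rose and 2 fell, a share near the 22.2% called over all genes, and their median was 0.21. Usp7, a deubiquitinase found with PRC1, rose from 339 CPM ± 74.5 to 546 CPM ± 110.5 (0.64 ± 0.12 SE, adjusted p = 0.00119). Cbx2, a reader of methylated lysine 27, rose too (1.17 ± 0.41 SE, adjusted p = 0.042), and was named after its value was seen. Bmi1, a ring finger subunit, fell (-0.49 ± 0.13 SE, adjusted p = 0.00872), as did Phc3 (-0.38 ± 0.13 SE, adjusted p = 0.0405).

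Genes that act against Polycomb marks went up or did not pass. Of 9 tested antagonists 3 rose and none fell, with a median of 0.14. Kdm6b, a demethylase of lysine 27 on histone H3, rose from 57.2 CPM ± 21.6 (SD, n = 12) to 95.9 CPM ± 35.9 (SD, n = 11; 0.64 ± 0.12 SE, adjusted p = 0.00127). It was the only 1 of the 9 called at equal cell division score (0.84 ± 0.16 SE, adjusted p = 0.0281). In that fit, which called 0.299% of all genes, none of the 25 PRC1 genes or 6 other PRC2 partners was called. Asxl1 and Asxl2, partners of the H2A deubiquitinase BAP1, rose by 0.42 ± 0.13 SE and 0.44 ± 0.14 SE (adjusted p = 0.0228 and 0.0339). The second lysine 27 demethylase gene, Kdm6a, had 0.31 ± 0.15 SE and did not pass (adjusted p = 0.153).

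Rb and E2F genes include regulators of S phase transcription. Of 18 tested 11 rose, none fell and 7 did not pass, with a median of 0.33. Among those that did not pass, 4 had negative values, and Rb1 itself stood at -0.92 ± 0.37 SE (adjusted p = 0.0721), named after its value was seen. E2f8 rose from 48.2 CPM ± 10.7 to 84.9 CPM ± 17.7 (0.81 ± 0.14 SE, adjusted p = 0.000695), and Mybl2, E2f7 and Rbl1 rose by 0.80, 1.18 and 0.52 (adjusted p = 0.00158, 0.0027 and 0.00824). Of 25 replication genes 20 rose and of 29 mitosis genes 26 rose, none of either fell, and their medians were 0.49 and 0.59. Tk1, Dut, Pola1 and Mcm6 of the first list and Mki67, Nuf2, Bub1b and Ccnb2 of the second had the smallest p. Mki67, the proliferation marker, averaged 701 CPM ± 365 and 1625 CPM ± 775 (1.03 ± 0.18 SE, adjusted p = 0.000692).

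Cell cycle brakes and plasma cell genes, of which EZH2 is known to hold back some in B cells, did not move one way. Of 9 tested 1 rose, 2 fell and 6 did not pass, with a median of -0.40. Over all genes 22.2% were called. Cdkn1a, the p21 brake, rose from 29.7 CPM ± 20.96 to 67.0 CPM ± 56.6 (1.15 ± 0.40 SE, adjusted p = 0.0416). Cdkn1b, the p27 brake, and Sdc1, a surface marker of plasma cells, fell, with log2 fold changes of -0.57 ± 0.19 SE and -2.01 ± 0.63 SE (adjusted p = 0.0384 and 0.0268). Xbp1 had -0.60 ± 0.36 SE (adjusted p = 0.241). Irf4, Prdm1 and Cdkn2a, named after their values were seen, had 0.20, -0.51 and -0.03 and did not pass (adjusted p = 0.606, 0.643 and 0.965). Of 39 Hox genes, classical Polycomb targets, 2 had enough counts to be tested. Hoxb4 averaged 4.51 CPM ± 2.54 and 1.23 CPM ± 1.74 and was called lower (-1.98 ± 0.68 SE, adjusted p = 0.0393), and Hoxd4 was not called (both named after their values were seen; 0.45 ± 1.79 SE, adjusted p = 0.88).

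**Figure D5:**
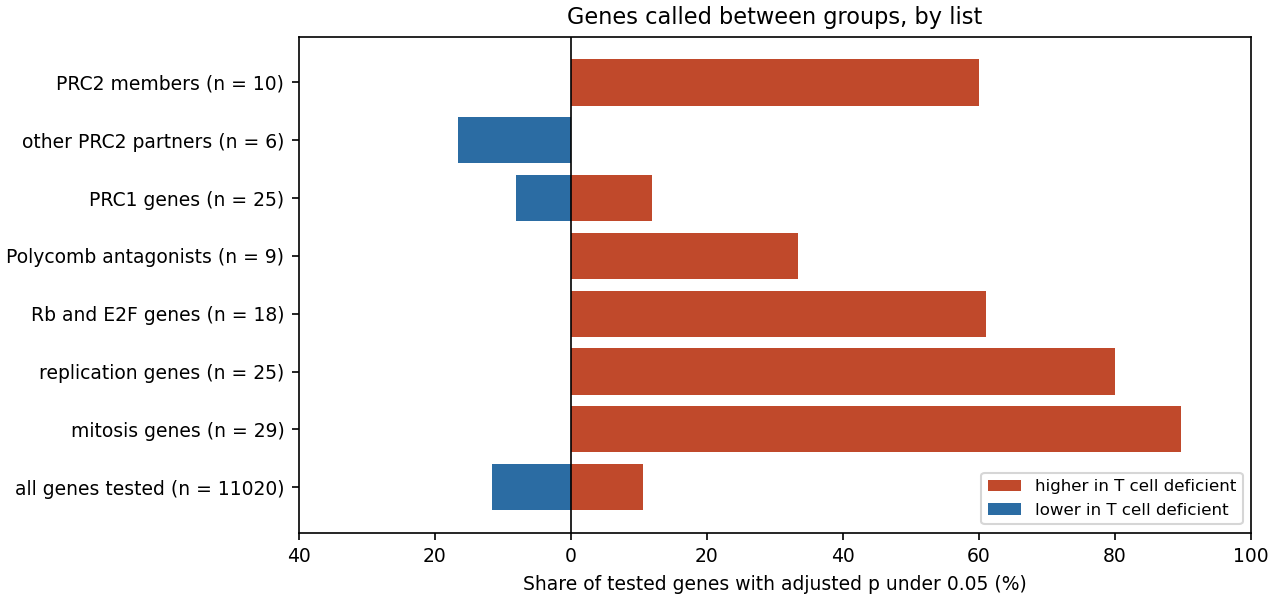
Share of the tested genes of each list with an adjusted p under 0.05 between groups (x axis, percent, higher to the right and lower to the left of 0), with the number tested beside each name. PRC2 genes (6 of 10 higher), Rb and E2F genes, and replication and mitosis genes extend to the right, while PRC1 genes and all genes tested have bars on both sides.

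Once group and run were removed, the PRC2 genes did not vary as 1 block across the 23 lymphomas. The correlation of their residual log2 CPM had a median of 0.02 over the 45 pairs, which share the same libraries and are given as a description. The highest were Rbbp4 with Mtf2 (0.72), Rbbp4 with Suz12 (0.67) and Ezh2 with Aebp2 (0.53). Ezh2 with Eed, its direct partner, had 0.05. The lowest was Ezh2 with Ezh1, at -0.43.

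The genes whose residuals followed Ezh2 most closely over the 23 libraries were Mib1 (r = 0.86), Depdc1b (0.85), Ncapg2 (0.82), Gphn (0.80), Zfand4 (0.80), Bag2 (0.79), Mybl2 (0.78), Atp5o (0.78), Dna2 (0.77) and Xylb (0.77). Ncapg2, a condensin subunit, Mybl2, a transcription factor of the cell cycle, and Dna2, a nuclease of replication, belong to cell division by their known roles, and Mib1, a ubiquitin ligase of Notch signalling, and Gphn, a scaffold protein, do not. Dna2 was also higher in deficient lymphomas (2.16 ± 0.32 SE, adjusted p = 0.000208). The genes most like Ezh1 were Pard6g (0.83), Zmym5 (0.82), Cyb561d1 (0.80), Fmo5 (0.77) and 1600012H06Rik (0.77), of which Pard6g was called lower in deficient lymphomas (-1.17 ± 0.41 SE, adjusted p = 0.0458).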

How the data were processed

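The authors deposited raw counts for 23 libraries, with CPM that equal count over column total to within 0.0005. Their deposited table of log2 fold changes and p-values was not used for results here. A repeat of sufficient lymphoma 1 was not analysed as a separate library, and 1 column (sufficient lymphoma 4) was matched by its leading number, as its suffix differs. Per the submitters' processing notes, mm10, GRCm38 and limma were used. For the aligner, counter and strand the sources used here give nothing. Deposited counts were tested with edgeR 4.0.16 (filterByExpr, TMM, robust quasi-likelihood test, terms for run and group) over 11020 genes, with Benjamini-Hochberg adjusted p under 0.05 as the threshold. The SE is the log2 fold change over the square root of F. Scores and correlations use log2 CPM with a prior count of 2 and 100000 permutations within runs. They were adjusted over all genes, not over the PRC2 genes as first planned. DESeq2 1.42.0 and limma-voom (limma 3.58.1) were alternatives, and the code was tested on simulated counts. Lengths and overlaps come from GENCODE M21, with exons merged per gene. The floor of 3 counts is 0.098 to 0.396 CPM, for counting error only. The members and lists were chosen with earlier results of these data known. Named beyond the members were up to 4 genes of each list with the smallest p, the 10 genes most like Ezh2 and the 5 most like Ezh1, and some genes that this rule names are not reported here. Same-numbered lymphomas of the groups did not deviate together.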

Additional observations from a re-analysis of the deposited data

Results flagged for a closer look

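In 5 of 40 sets of libraries (each PRC2 gene in each group and run), the highest library stood apart from the rest by Dixon's 95% criterion, which chance meets in about 1 of 20 sets. Mtf2 reached 249 CPM in sufficient lymphoma 6, against 110.1 CPM in the next of the 7 run 1 libraries. Phf19 reached 89.9 CPM in sufficient lymphoma 7, against 53.5 CPM in the next. Jarid2 reached 141 CPM in sufficient lymphoma 4, against 77.8 CPM in the next. In run 2, sufficient lymphoma 10 stood apart for both Phf19, at 93.2 CPM against 45.9 CPM, and Jarid2, at 147 CPM against 103 CPM. All 5 were accessory genes in the sufficient group.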

How the results depend on the processing

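The differences of Ezh2, Eed, Suz12, Rbbp4 and Rbbp7 between groups passed the threshold in all 23 fits that left out 1 library. In these fits 5 to 6 PRC2 genes and 1945 to 2783 genes were called (828 to 1337 higher, 1056 to 1446 lower), and the log2 difference of Ezh1 ran from -0.027 to 0.099 and that of Aebp2 from -0.034 to 0.071. At an adjusted p under 0.01, 1027 genes were called (465 higher, 562 lower). Run 1 alone gave 0 genes (0 higher, 0 lower) and 0 PRC2 genes, with Ezh1 at -0.13 and Aebp2 at -0.18, and run 2 alone 1359 genes (629 higher, 730 lower) and 3 PRC2 genes. With the cell division score as a covariate 33 genes (6 higher, 27 lower) and 0 PRC2 genes were called, with Aebp2 at -0.073. Without the 3 libraries with Xist and Y-linked transcripts, a setting chosen after seeing the data, 1470 genes were called (653 higher, 817 lower). Ezh1 stood at -0.025 in that fit, at -0.026 with Xist and Y-linked covariates, under which Phf19 was not called (adjusted p = 0.0785), and at -0.027 with the macrophage covariate, also chosen after seeing the data. Aebp2 stood at -0.0040 without the run term. The cause of these shifts was not tested.

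The shared replicate numbers do not pair the lymphomas. The correlation of the deviations of same-numbered libraries ran from -0.246 to 0.232, and 1 of 11 correlated best with its own number. With the replicate block Mtf2 was called (0.62, adjusted p = 0.0317), Phf19 was not (adjusted p = 0.051), Aebp2 stood at -0.0067, and slopes were called for 0 genes (0 higher, 0 lower).

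Slopes were called for 322 to 553 genes when 1 library was left out (245 to 374 positive, 74 to 181 negative, the fewest without sufficient lymphoma 10) and for 0 to 1 PRC2 genes, with Phf19 from -0.50 to 0.33 and Aebp2 from -0.023 to 0.14. Without the 3 libraries with Xist and Y-linked transcripts slopes were called for 200 genes (163 positive, 37 negative), with Phf19 at 0.31, and a score of replication genes alone called 1 PRC2 gene. Without centring by run, 2 PRC2 genes, Suz12 and Rbbp4, passed in the sufficient group, and r of Aebp2 in the deficient group was -0.094. Without the 2 libraries farthest from the median score, r turned in the sufficient group to -0.25 for Rbbp7, 0.030 for Jarid2 and -0.087 for Aebp2, and in the deficient group to -0.56 for Rbbp7, 0.65 for Mtf2 and -0.17 for Aebp2. Without the Xist and Y-linked libraries Rbbp7 had -0.28 in the sufficient group. Leaving out 1 library, r in the sufficient group ran from -0.10 to 0.15 for Aebp2 and from -0.012 to 0.52 for Rbbp7, and in the deficient group from -0.14 to 0.61 for Suz12, from -0.11 to 0.48 for Rbbp7, from -0.65 to 0.85 for Mtf2 and from -0.28 to 0.33 for Aebp2. No PRC2 gene was near the floor of 3 counts in any library.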
